A study of Mus musculus with 2 samples.

Results

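The Bcl2 family sets whether a cell keeps its mitochondrial outer membrane closed or opens it and dies by apoptosis. The 10 listed members, Bcl2, Bcl2l1, Mcl1, Bax, Bak1, Bcl2l11, Bbc3, Pmaip1, Bid and Bad, were taken by symbol from the 43346 mouse genes of the gene tables, and all 10 were matched to 1 identifier each. The tissue was whole kidney of B6NCrl mouse embryos at embryonic day 15.5, pooled over both sexes, healthy and untreated. The only group held 2 biological replicate libraries of total RNA, each made from 10 ng. Replicate 1 pooled 78 embryos and held 36244861 expected counts, and replicate 2 pooled 62 embryos and held 39415002. Expected counts are reads shared out among features by the authors' quantifier. TPM is the length-adjusted level on a fixed sum per library, so only TPM was used to compare genes. With 1 group and 2 libraries there is no comparison of conditions and no p-value, and the smallest exact p that a pair of libraries allows is 0.5.

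Pro-survival members (Bcl2, Bcl2l1, Mcl1) hold the effectors Bax and Bak1 in check, and the effectors form pores when released. BH3-only members (Bcl2l11, Bbc3, Pmaip1, Bid, Bad) carry one short helix, the BH3 region, which fits a groove of the pro-survival proteins. In the developing kidney, loss of Bcl2 in mice is known to give small cystic kidneys, and loss of Bcl2l11 alongside it is known to rescue them.

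The BH3 region is what the 10 members share, so its coding sequence is shown for 9 of them. A script translated the leading protein-coding transcript of each gene and searched for leucine, any 3 residues, then glycine, alanine or serine, then aspartate. Each of the 9 proteins shown held 1 match, and Pmaip1 held 2. The pattern is common, since 33.8% of 21767 mouse proteins (the longest complete one of each protein-coding gene) hold it, so a match by itself describes no function. Each line gives 45 coding bases, 5′ to 3′ on the gene's strand, with the 6 codons of the match in capitals, from GENCODE M21 on build mm10. All lie within 1 exon. Bcl2 is at chr1:106712572-106712616 (minus strand, exon 1 of 2), Bcl2l1 at chr2:152829694-152829738 (minus, exon 2 of 3) and Mcl1 at chr3:95659421-95659465 (plus, exon 1 of 3). The effectors are Bax at chr7:45465994-45466038 (minus, exon 3 of 6) and Bak1 at chr17:27022528-27022572 (minus, exon 4 of 6). Among BH3-only genes, Bcl2l11 is at chr2:128147135-128147179 (plus, exon 3 of 4) and Bbc3 at chr7:16313758-16313802 (plus, exon 3 of 4). Bid is at chr6:120897286-120897330 (minus, exon 4 of 6) and Bad at chr19:6950777-6950821 (plus, exon 3 of 4).
Bcl2: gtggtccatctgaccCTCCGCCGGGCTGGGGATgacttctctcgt
Bcl2l1: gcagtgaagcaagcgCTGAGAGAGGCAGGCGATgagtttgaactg
Mcl1: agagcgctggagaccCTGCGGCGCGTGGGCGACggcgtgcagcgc
Bax: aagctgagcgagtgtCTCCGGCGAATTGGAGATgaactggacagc
Bak1: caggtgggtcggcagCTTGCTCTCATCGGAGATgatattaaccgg
Bcl2l11: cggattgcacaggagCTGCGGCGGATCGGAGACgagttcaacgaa
Bbc3: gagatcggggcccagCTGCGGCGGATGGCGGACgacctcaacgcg
Bid: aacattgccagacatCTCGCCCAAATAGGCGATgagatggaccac
Bad: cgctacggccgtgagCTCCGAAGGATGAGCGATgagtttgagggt

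Of the 18 bases in capitals, 4 were the same in all 9 genes, and these lie in the leucine and aspartate codons that the search itself required. The aspartate codon was GAT in 6 genes and GAC in 3, and the small residue before it was glycine in 7, while Bbc3 and Bad had another. Over the whole length, aligned only for the pro-survival and effector proteins, Bcl2 and Bcl2l1 shared 103 identical residues, 44.2% of the shorter protein, and Mcl1 shared 27.5% with Bcl2 and 27.9% with Bcl2l1. The effectors Bax and Bak1 shared 24.5%.

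All 10 members were detected, meaning 1 TPM or more in both libraries, against 62.3% of all protein-coding genes in the tables. Their levels ran from 2.32 to 141 TPM (means of the 2 libraries), with a median of 22.7 TPM, beside a median of 19.5 TPM over the 13387 protein-coding genes detected. The order by TPM was the same in both libraries at all 10 places: Bax, Bcl2l1, Bad, Mcl1, Bcl2l11, Bcl2, Bid, Bbc3, Bak1 and Pmaip1. These are levels of a whole organ, in which fewer cells of a type and less RNA per cell cannot be told apart.

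**Figure D1:**
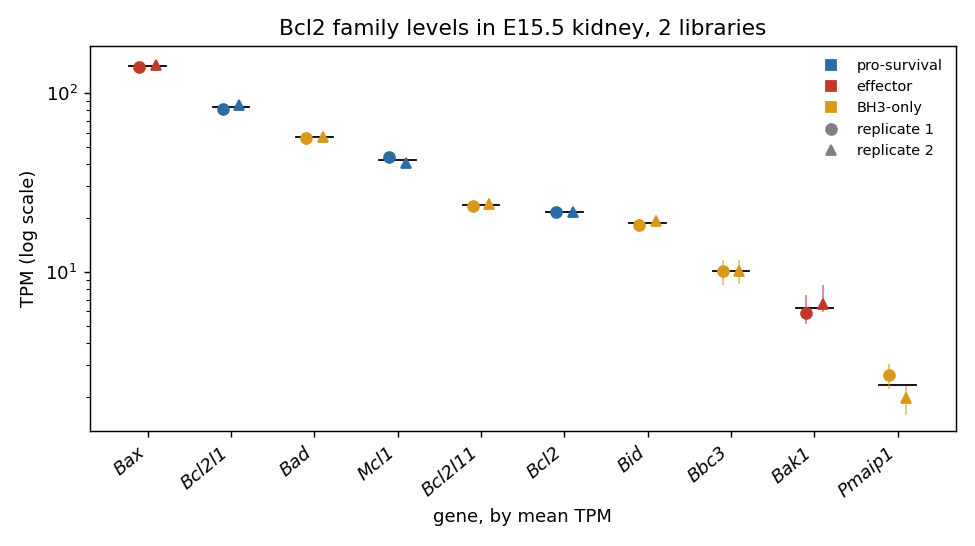
TPM of each member (log axis) in replicate 1 (circles) and replicate 2 (triangles), coloured by role, with the mean as a black bar and the quantifier's own interval, whose level is not stated in the sources used here, as a thin line. Bax stands highest at a mean of 141 TPM and Pmaip1 lowest at 2.32 TPM, and the order of the 10 genes is the same in both libraries.

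Bcl2l1, which encodes BCL-XL, was the most abundant pro-survival gene (ENSMUSG00000007659.14, chromosome 2, 152780668 to 152831728, minus strand). It had 81.5 TPM in replicate 1 and 86.0 in replicate 2, a mean of 83.8 ± 3.22 (SD, n = 2). That mean was above 85.9% of detected protein-coding genes. Mcl1, a short-lived protein that binds BIM, NOXA and BAK (ENSMUSG00000038612.12, chromosome 3, 95658788 to 95663176, plus strand), had 43.8 and 40.8 TPM, a mean of 42.3 ± 2.15. Bcl2, the founding member (ENSMUSG00000057329.7, chromosome 1, 106538178 to 106714274, minus strand), had 21.7 TPM in each library. The 3 genes did not overlap, and Bcl2l1 lay 1.98-fold above Mcl1, which lay 1.95-fold above Bcl2. Bcl2l1 held 56.7 ± 1.77% of the summed pro-survival TPM, Mcl1 28.6 ± 1.66% and Bcl2 14.7 ± 0.103%. Bcl2 transcripts are long, with a mean length over its forms of 5377 nt in replicate 1, so its 2801 and 3022 expected counts correspond to a lower TPM than the 2624 and 2918 of Bax, at 869 nt.

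Bax and Bak1, the pore-forming effectors, stood near opposite ends of the family. Bax (ENSMUSG00000003873.10, chromosome 7, 45461697 to 45466898, minus strand) had 139 TPM in replicate 1 and 144 in replicate 2, a mean of 141 ± 3.22, above 92.2% of detected protein-coding genes. Bak1 (ENSMUSG00000057789.9, chromosome 17, 27019810 to 27029009, minus strand) had 5.9 and 6.57 TPM, a mean of 6.24 ± 0.474, above 22.8% of them. The Bax level was 23.6-fold that of Bak1 in replicate 1 and 21.9-fold in replicate 2, so Bax made up 95.8 ± 0.215% of their sum. Bak1 rested on 274 and 349 expected counts. Its locus overlaps Ggnbp1, a gene on the opposite strand at 5.65 and 6.45 TPM, which shares 437 of the 2407 exonic bases of Bak1. The sources used here do not say whether counting used strand, and reads of the shared bases cannot be told apart. Part of Bax exons, 192 of 1576 bases, is also shared with Gm45808 on the same strand, and 6.09% of Bcl2 exonic bases with the antisense gene D630008O14Rik, at 1.35 and 0.52 TPM.

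Bad led the BH3-only genes, and Pmaip1 was the lowest of all members. Bad, a BCL-XL binder held inactive by phosphorylation (ENSMUSG00000024959.9, chromosome 19, 6941861 to 6951899, plus strand), had 56.3 and 56.8 TPM, a mean of 56.5 ± 0.375. It made up 50.8 ± 0.199% of the summed BH3-only TPM. Bcl2l11, which encodes BIM (ENSMUSG00000027381.12, chromosome 2, 128126038 to 128162547, plus strand), had 23.3 and 24.0 TPM. Bid, which caspase-8 cleaves to link death receptors to mitochondria (ENSMUSG00000004446.8, chromosome 6, 120891930 to 120916853, minus strand), had 18.2 TPM in replicate 1 and 19.3 in replicate 2. The p53 target genes Bbc3 and Pmaip1, which encode PUMA and NOXA, closed the list. Bbc3 (ENSMUSG00000002083.8, chromosome 7, 16308393 to 16318205, plus strand) had 10.1 TPM in each library. Pmaip1 (ENSMUSG00000024521.7, chromosome 18, 66458533 to 66465565, plus strand) had 2.66 and 1.97 TPM, a mean of 2.32 ± 0.488, above 7.86% of detected protein-coding genes. These 5 genes ran from 2.08% (Pmaip1) to 50.8% (Bad) of their sum.

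Neighbours in this order were set against replicate error, the size of log2 TPM difference between the libraries that 95% of genes of similar level stayed under. That limit was 0.92 (log2) at 1 to 3 TPM, 0.79 at 3 to 10, 0.37 at 10 to 30, 0.27 at 30 to 100 and 0.25 above. Of the 45 pairs of members, 41 differed by more than the limit of the lower gene in both libraries, and of the 9 neighbouring pairs, 6 did. The share of pairs of other genes that would pass was not counted, so these counts show nothing particular to the family. Bias of a gene that both libraries share is not covered by the limit. The smallest of the neighbouring differences past the limit was Bad above Mcl1, 0.42 ± 0.0829 on the log2 scale. On whole-gene TPM, Bcl2l11, Bcl2 and Bid could not be ordered, as Bcl2l11 lay 0.13 ± 0.0288 above Bcl2 and Bcl2 lay 0.21 ± 0.0622 above Bid. Bbc3 lay 0.70 ± 0.111 above Bak1, which also stayed within the limit. Bak1 lay above Pmaip1 by 1.15 in replicate 1 and 1.74 in replicate 2.

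**Figure D2:**
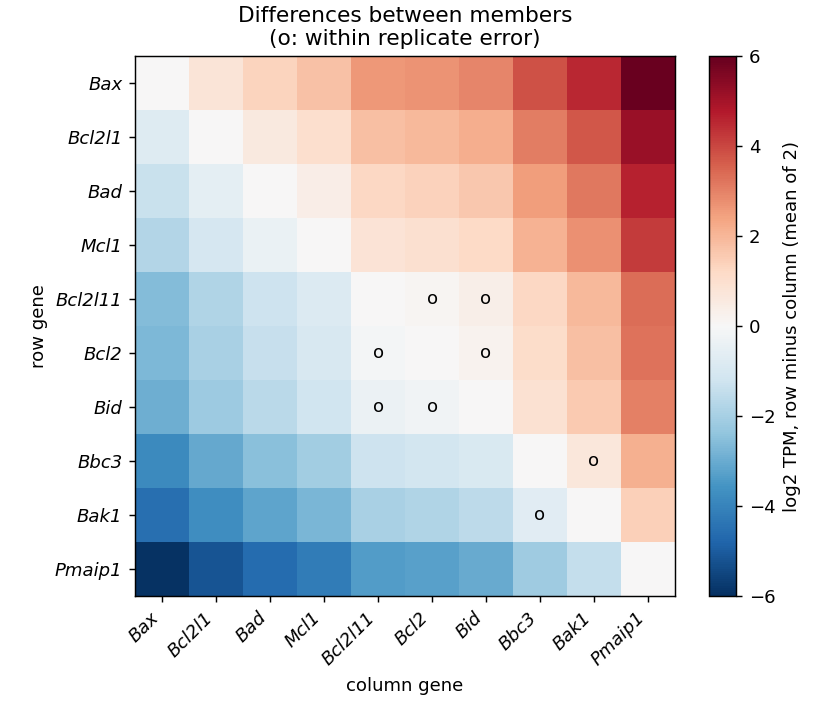
Mean log2 TPM difference of the row gene minus the column gene over the 2 libraries, for the 10 members in order of level. Circles mark the 4 pairs within replicate error, which are Bcl2l11/Bcl2, Bcl2l11/Bid, Bcl2/Bid and Bbc3/Bak1, while the other 41 pairs differed.

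Summed by role, the 3 pro-survival genes and the 2 effectors were level. The pro-survival genes summed to 147 TPM in replicate 1 and 149 in replicate 2, a mean of 147.7 ± 1.08. The effectors summed to 145 and 150.3, a mean of 147.7 ± 3.69. The pro-survival to effector ratio averaged 1.0008 ± 0.0177, with the pro-survival sum the higher one in replicate 1 and the effector sum in replicate 2. The 5 BH3-only genes summed to 110.5 and 112 TPM, a mean of 111 ± 1.17, which was 1.33-fold below the pro-survival sum. Summed levels say nothing of protein amounts and depend on which genes are counted. Bok, another pore-forming relative, had 64.8 and 75.1 TPM, and counting it raised the effector sum to 218 TPM, beside 153 TPM for the pro-survival genes with their other relatives counted.

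No member differed between the libraries by 1.5-fold or more in TPM, against 6.93% of the 15555 genes with a mean of 1 TPM or more and a value above 0 in both libraries. The median absolute log2 ratio was 0.06 over the members and 0.10 over detected protein-coding genes. Neither set of genes was matched to the members for level. At 1 to 3 TPM, 95% of genes stayed under 1.90-fold, with a median absolute log2 ratio of 0.244. At 10 to 30 TPM these values were 1.29-fold and 0.098. All members but Bak1 and Pmaip1 had means above 10 TPM. Pmaip1 differed most, at a ratio of 0.741 (replicate 2 over replicate 1), with the next largest at 1.11 for Bak1. With the limit lowered to a log2 difference of 0.32, Pmaip1 alone passed, 1 of 10 members against 16.0% of the 15555 genes. Its 166 and 132 expected counts gave a count ratio per library total of 0.731 with an exact 95% interval of 0.577 to 0.925. Bak1 had a count ratio of 1.17 (0.997 to 1.38) and Mcl1 of 0.928 (0.886 to 0.972). Such intervals cover counting error only. PCR copies of a molecule were not marked as such, so even that error may be understated. Ratios of the remaining members lay between 0.999 for Bbc3 and 1.06 for Bid in TPM. Marker genes of neighbouring organs differed more. Summed TPM of the adrenal markers Cyp11a1 and Th was 17.4 in replicate 1 and 66.6 in replicate 2, of the liver markers Afp and Alb 119 and 216, and of the muscle markers Acta1 and Tnnt3 228 and 126. Their part in the levels of the members was not tested. The 8 kidney markers were all detected, summing to 480.5 and 476 TPM, the 5 leukocyte markers to 93.0 and 96.2 TPM and the 3 red cell markers to 5070 and 5416 TPM.

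**Figure D3:**
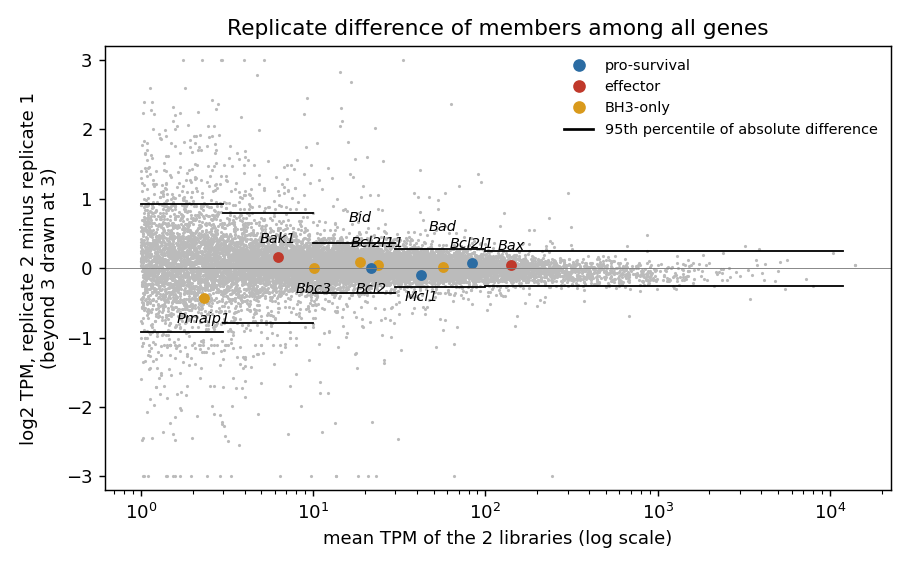
Log2 TPM of replicate 2 minus replicate 1 against mean TPM (log axis) for the 15555 genes with a mean of 1 TPM or more and values above 0 (grey) and the 10 members (coloured by role). Differences beyond 3 are drawn at 3. Black lines mark the 95th percentile of the absolute difference in each bin of level, and all members lie inside them, with Pmaip1 farthest from 0.

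Transcript tables listed 40 transcripts for the 10 genes, of which 39 had their identifier in M21 and 34 of these the same length. Transcript levels are model estimates and are uncertain where forms share exons. Classes such as nonsense-mediated decay, RNA that a premature or misplaced stop marks for destruction, are those of M21. Bax and Pmaip1 had 1 transcript each. For the other 8 genes the leading transcript was the same in both libraries, as it was for 91.9% of 9760 detected protein-coding genes with several transcripts. In 1 of the 8, Bak1, it was not of protein-coding class, against 7.41% of such genes.

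**Figure D4:**
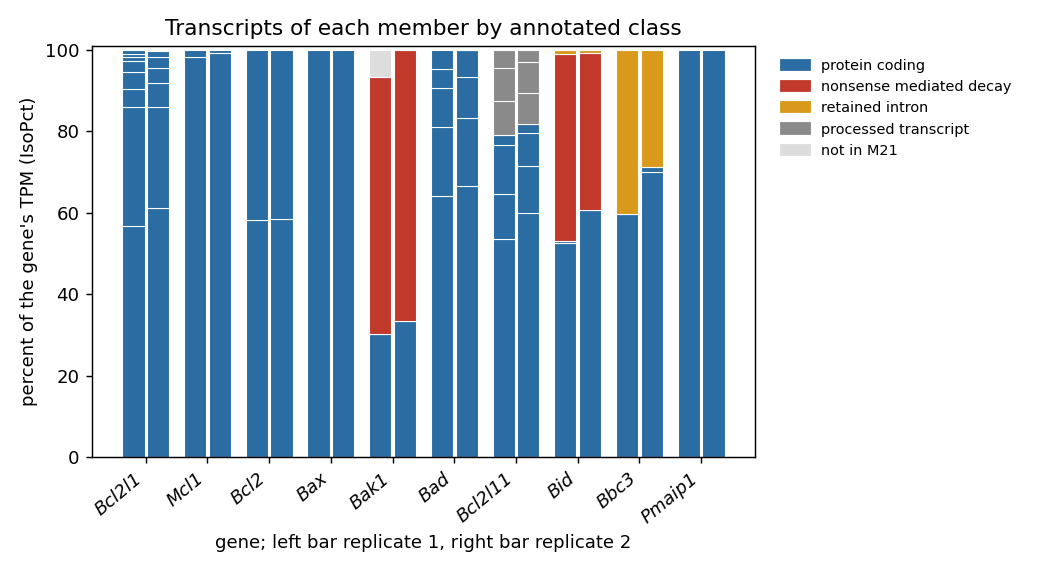
Percent of each gene's TPM held by each deposited transcript (stacked pieces), coloured by its class in GENCODE M21, with replicate 1 as the left and replicate 2 as the right bar of each gene. Protein-coding transcripts fill the bars of Bcl2l1, Mcl1, Bcl2, Bax, Bad and Pmaip1, while they hold 30.3% and 33.5% of Bak1.

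Most Bak1 RNA was assigned to a form with an extra 20-base exon. This form, Bak1-201 (nonsense-mediated decay), held 63.0% of Bak1 TPM in replicate 1 and 66.5% in replicate 2, at 3.72 and 4.37 TPM. The full-length form Bak1-202 (209 residues) held 30.3% and 33.5%, at 1.79 and 2.2 TPM. The quantifier's TPM intervals of the forms overlapped in replicate 1 (2.43 to 4.49 against 1.13 to 2.7) and not in replicate 2 (3.19 to 5.25 against 1.39 to 2.97). Exon 5 of Bak1-201 is the only sequence that tells it from Bak1-202 apart from the first and last exon ends, so it is shown in capitals with 20 coding bases on either side, on the minus strand at chr17:27021663-27021682.
Bak1-201 exon 5: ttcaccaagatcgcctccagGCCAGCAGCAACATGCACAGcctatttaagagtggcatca

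Its length is not a multiple of 3, and the reading frame of Bak1-201 ends after 151 residues, past the BH3-coding stretch printed above but without the C-terminal residues of Bak1-202. An exon of this kind has been described in Bak1 RNA of neurons. The 431 bases at the start of Bak1-202 that Bak1-201 lacks share 266 with exons of Ggnbp1, whose reads cannot be told apart from them. Counting only transcripts of protein-coding class, Bax exceeded Bak1 77.7-fold in replicate 1 and 65.3-fold in replicate 2. Bax had 1 transcript, of that class, so this count could lower only Bak1 and the ratio could not fall. On that count Bak1 and Pmaip1 no longer differed beyond replicate error, with a mean difference of -0.21 ± 0.517 on the log2 scale, and neither did Bid and Bbc3. By contrast, Bcl2 and Bcl2l11 each then lay above Bid beyond the limit, by 1.03 ± 0.197 and 0.84 ± 0.136, and Bak1 minus Bbc3 was -1.73 ± 0.0278, also beyond it. Bcl2 and Bcl2l11 stayed within the limit of each other. The limits used here were those of whole-gene TPM, as replicate error of transcript sums was not measured. The Bid values on that count leave out Bid-204, whose own exon is shared with Bcl2l13, as given below.

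Bid and Bbc3 also had a large share assigned to a second form outside the protein-coding class. Bid-201 held 52.5% and 60.7% of Bid TPM, and Bid-204 (nonsense-mediated decay) held 45.9% and 38.5%. Both carry the same coding length of 195 residues. The exon that sets Bid-204 apart is its last one, 628 bases, and all 628 are also exonic in Bcl2l13, which runs on the opposite strand at a mean of 20.17 ± 0.382 TPM. Reads of Bcl2l13 and of this exon cannot be told apart without strand. Bbc3-201, the coding form, held 59.7% and 70.2% of Bbc3 TPM, and the retained-intron form Bbc3-203 held 40.3% and 28.7%. These shifts, 10.5 points up and 11.6 points down from replicate 1 to replicate 2, were the only ones of 10 points or more among the 40 transcripts. Both are shares of the same gene total, so the rise and the fall largely mirror each other. How many transcripts of other genes shift as much was not counted. The TPM intervals of Bbc3-203, 2.24 to 5.75 and 1.07 to 4.66, overlapped. This form rested on 78.0 and 59.7 expected counts. Only 110 of its bases lie beyond Bbc3-201, and these are in an intron of Bbc3-201. As total RNA was sequenced, unspliced Bbc3 RNA and Bbc3-203 cannot be told apart there.

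Bcl2 RNA was divided between forms with different ends. Bcl2-201 (236 residues, 7191 nt) held 58.3% and 58.5% of Bcl2 TPM, and Bcl2-202 (199 residues, 2841 nt) held 41.7% and 41.5%. In place of 132 coding bases in the second exon of Bcl2-201, Bcl2-202 has 21 coding bases of its own. The shorter protein, known as BCL2 beta, lacks the tail that anchors BCL2 in membranes. Bcl2-202 has a single exon, and its 1966 bases beyond Bcl2-201 lie in the intron of that form. As total RNA was sequenced, unspliced Bcl2 RNA and this form cannot be told apart there.

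Bcl2l1 and Mcl1 were dominated by full-length forms. Bcl2l1-201 held 56.8% and 61.3% and Bcl2l1-202 held 29.1% and 24.8% of Bcl2l1 TPM. These forms differ in their first exon and in 4 bases at the end, and both encode 233 residues. Bcl2l1-205 (209 residues), which reads into the intron, held 4.41% and 5.77%. Mcl1-201 (331 residues) held 98.3% and 99.2% of Mcl1 TPM.

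Bcl2l11 is known for extra-long, long and short proteins, and the extra-long form led. Bcl2l11-205 (196 residues) held 53.6% and 60.1% of Bcl2l11 TPM. The short form Bcl2l11-201 (110 residues) held 12.1% and 8.22%, and the long form Bcl2l11-203 (140 residues) held 2.54% and 2.06%. Bcl2l11-202 (91 residues), at 11.0% and 11.4%, ends in another exon and lacks the BH3-coding stretch. Transcripts whose annotated coding sequence holds that stretch made up 68.3% and 70.4% of Bcl2l11 TPM, beside 59.7% and 70.2% for Bbc3. The 2 cases are unlike. Transcripts whose RNA holds the stretch, coding or not, made up 100% and 98.8% of Bbc3 TPM. Bbc3-203 holds it but has no annotated coding sequence. For Bcl2l11 the share by RNA was the same as by coding sequence. For the other 8 members the share by coding sequence was 93.3% or more in both libraries. For Bax and Pmaip1, with 1 transcript each, it could only be 100%. That share counts nonsense-mediated decay forms of Bak1 and Bid whose annotated coding sequence holds the stretch. By protein-coding class alone, transcripts made up 30.3% and 33.5% of Bak1 TPM and 53.2% and 60.7% of Bid TPM, beside 79.2% and 81.7% for Bcl2l11. Bad-202 (162 residues) held 64.2% and 66.6% of Bad TPM and Bad-201 (204 residues) held 16.9% and 16.7%. The first exon of Bad-201 has 580 bases, of which 517 are shared with Gpr137 on the opposite strand.

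Beyond the 10 members, 64 of 79 other genes of the cell death pathway, in 9 lists, were detected in both libraries and 13 were below 1 TPM in both. The detected share was 81.0%, against 62.3% of all protein-coding genes in the tables, which is also the figure to set beside each list below. The lists were chosen with earlier results of these data known. Of 5 other pro-survival genes, Bcl2l2 alone was detected, at 2.86 and 3.36 TPM. Bcl2a1b, of a family known from leukocytes, had 1.56 and 0.68 TPM, Bcl2a1d had 0.51 and 0.65, Bcl2a1a had 0 and 0.11, and Bcl2l10 was listed at 0 in both libraries. The Bcl2a1 genes are near-identical copies, so their single values are uncertain. Of 10 other relatives, 8 were detected, with a median of 14.3 ± 0.0813 TPM. Bnip3l and Bnip3, receptors for removal of mitochondria, led at 445 ± 11.4 and 85.5 ± 0.24 TPM, followed by Bok at 70.0 ± 7.28. The BH3-only gene Hrk (0.08 and 0.09 TPM) and Bcl2l15 (0.07 and 0.09) were below 1 TPM.

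The mitochondrial and caspase lists were detected in full and the caspase inhibitors in part. All 11 genes of mitochondrial partners and release had 1 TPM or more, with a list median of 77.3 ± 4.5 TPM, led by the outer membrane channels Vdac1 at 283 ± 15, Vdac3 at 266 ± 9.14 and Vdac2 at 262 ± 7.59 TPM. All 8 apoptosome and caspase genes were detected, with a median of 27.1 ± 0.7 TPM, and among them Casp6 had 63.2 ± 0.601 and Casp2 47.4 ± 1.17 TPM. Of 9 caspase inhibitor genes 5 were detected (median 5.89 ± 0.672 TPM), led by Birc5, also a mitotic protein, at 261 ± 13.2, then Birc6 at 77.8 ± 4.68 and Birc2 at 29.96 ± 1.56 TPM. The 4 Naip genes stayed below 1 TPM in both, Naip1 at 0.01 and 0.01, Naip2 at 0.47 and 0.36, Naip5 at 0.48 and 0.56, and Naip6 at 0.31 and 0.17.

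**Figure D5:**
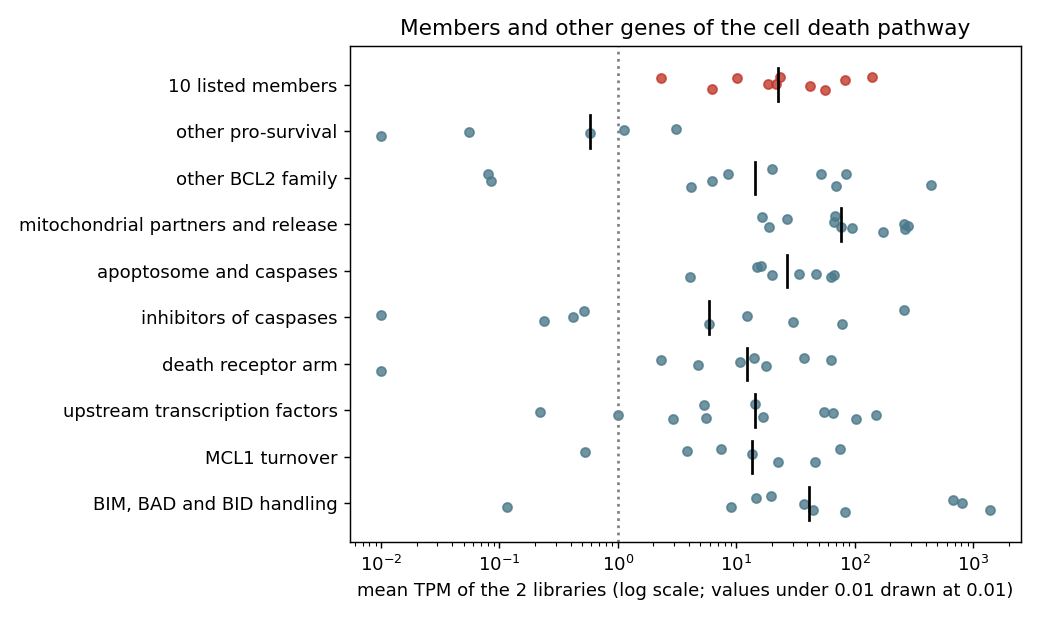
Mean TPM of the 2 libraries (log axis) for the 10 members (red) and the 79 genes of 9 pathway lists (blue), 1 point per gene, with each list's median as a black bar and 1 TPM as a dotted line. The other pro-survival genes sit lowest with a median of 0.58 TPM, and the mitochondrial partners highest with 77.3 TPM.

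Genes that act upstream of the family or on its proteins were mostly detected. In the death receptor arm, which reaches the family through BID, 7 of 8 genes were detected with a median of 12.5 ± 0.346 TPM, led by Tnfrsf1a at 63.8 ± 5.3, Cflar at 37.6 ± 1.48 and Tradd at 17.9 ± 2.21 TPM, while the ligand gene Fasl was at 0 and 0.02 TPM. Of 11 transcription factors known to drive BH3-only genes, 9 were detected (median 14.5 ± 0.375 TPM). Trp53, which encodes p53, led at 144 and 159 TPM, then Atf4 at 104 ± 1.68 and Hif1a at 65.2 ± 4.53 TPM, and Trp73 was at 0.25 and 0.19. Known p53 target genes among the members include both Bax, the highest, and Pmaip1, the lowest. Of 7 genes of MCL1 turnover 6 were detected (median 13.7 ± 0.127 TPM), led by the ubiquitin ligase March5 at 76.1 ± 4.79, Huwe1 at 46.4 ± 2.58 and the deubiquitinase Usp9x at 22.8 ± 2.06 TPM, with Trim17 at 0.58 and 0.48. Among 10 genes that hold or modify BIM, BAD or BID, 9 were detected (median 41.2 ± 0.315 TPM). The dynein light chain Dynll1 led at 1395 ± 121 TPM, then the 14-3-3 genes Ywhae at 805 ± 35.8 and Ywhaz at 674 ± 25.5, and the granzyme gene Gzmb was at 0.03 and 0.2 TPM.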

How the data were processed

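Both libraries came with a gene and a transcript table. The deposited expected counts, TPM, FPKM (fragments per length and depth) and the percent of a gene's TPM per transcript (IsoPct) were made by the authors from reads aligned to mm10 with GENCODE M4, per the text files deposited beside the tables. Which quantifier was used, and with what strand setting, is not given in the sources used here. Symbols, classes and coordinates came from GENCODE M21 (same build), matched by identifier without version for 98.0% of mouse genes. Members and lists were chosen with earlier results of these data known. Named are all 10 members, each pathway list's 3 highest genes and all genes below 1 TPM in both libraries, and transcripts that lead, hold 10% in both libraries or shift by 10 points. One gene that this rule names is not reported here. Bcl2l1-205, Bcl2l11-201, Bcl2l11-203 and genes overlapping members were added once values had been seen. The libraries differed beyond sampling noise (chi-square per degree of freedom 11.4 over 19818 genes). Error limits were set per bin of level, bounded by 1, 3, 10, 30 and 100 TPM. A count of 0 allows up to 3 counts. Translations and alignments (BLOSUM62) used Biopython 1.88 under Python 3.11.15. Expected counts were rounded for scaling with edgeR 4.0.16 (TMM) and DESeq2 1.42.0. No column of another sample was present (0 columns).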

Additional observations from a re-analysis of the deposited data

How the results depend on the processing

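No paired analysis was possible because there is 1 group. Leaving out a replicate only returns the other library's values, printed in the report, and says nothing about stability. The count of detected members was 9 at 5 TPM and 10 under the other alternatives. Pairs that differed numbered 36 to 42 over all alternatives, 36 with the 99th percentile as limit. Scaling by TMM or by DESeq2 size factors left no member past 1.5-fold, and 1 member (Pmaip1, by TPM) passed a limit lowered to a log2 difference of 0.32, against 16.0% of all genes.

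Rescaling TPM over nuclear mouse genes raised all levels. The role sums became 164, 164 and 124 TPM (pro-survival, effector, BH3-only). Levels became 157 TPM for Bax, 93.0 for Bcl2l1, 62.8 for Bad, 47.0 for Mcl1, 26.3 for Bcl2l11, 24.1 for Bcl2, 20.8 for Bid, 11.2 for Bbc3 and 6.93 for Bak1. Posterior mean TPM gave 145.8 for the pro-survival sum, 21.2 for Bcl2, 10.04 for Bbc3 and 55.8 for Bad. With other relatives counted the sums were 153, 218 and 126 TPM. Protein-coding transcripts alone, chosen after seeing the data, gave 143 TPM for effectors and 95.2 for BH3-only genes.

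By expected counts, which favour long transcripts, the Mcl1 share of the pro-survival sum was 32.0%, and leading transcripts held 78.4% of Bcl2, 99.7% of Mcl1, 62.2% of Bak1, 78.4% of Bcl2l11 and 80.2% of Bbc3. The posterior mean share of Bak1-201 was 57.5%. Depth limits Bak1 and Pmaip1 most, with 132 to 349 expected counts per library.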
